A study of Homo sapiens with 9 samples.

Results

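Mitotic genes encode the proteins that drive a cell from G2 through mitosis to cytokinesis: cyclins and their kinase, entry and checkpoint kinases, anaphase regulators, kinetochore proteins, condensin subunits, spindle assembly factors and cytokinesis proteins. The 43 genes described here were chosen by symbol, from a list of G2/M and spindle genes that leaves out the KIF-named kinesins and the augmin complex. CENPE, a kinesin of the kinetochore, is kept among them. All 43 were found among the 38179 entries of the count table, and all 43 were among the 21071 genes that passed the filter on low values, a log2 CPM above -2 in at least 1 of the 9 libraries. CPM is the count of a gene relative to the total of its library, on the usual scale and after TMM scaling. Their raw counts lay between 1225 (BORA) and 68699 (TOP2A) per library, so none of them was near that filter.

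The study sequenced polyA RNA from U-2 OS, a line of human osteosarcoma cells, after gene editing with transiently delivered Cas9 mRNA and 1 synthetic crRNA per culture. The crSUGP1 cells received a guide to SUGP1, a nuclear RNA-binding protein. The crXCR1 cells received a guide to XCR1, a chemokine receptor gene of dendritic cells, as a control for the DNA cut itself. The NTC cells received a guide with no target in the genome. Each of 3 independent experiments gave 1 library per guide, 9 libraries in all, and each library came from a pool of edited cells in its own flask, not from a clone. All cells, NTC included, were exposed to Cas9. The labels give 50 nM crRNA and 72 h for the plate-based screen of the study, and state no separate dose or time for the flasks.

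Mitotic genes are switched on late in the cell cycle. Their promoters are held silent in G0 and G1 by the DREAM complex, whose MuvB core later binds B-MYB (MYBL2) and FOXM1 and activates the same promoters in G2. MuvB reaches these promoters through a short element, the cell cycle genes homology region (CHR), and many of them also hold CCAAT boxes, the binding site of NF-Y. The messages therefore peak in G2 and mitosis and are widely used as a readout of the share of dividing cells. In RNA from whole cultures, fewer cells in G2 or mitosis and less RNA per cell cannot be told apart.

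Promoters are shown for NCAPG, the member called in the comparisons below, beside CCNB1 and PLK1, the genes of cyclin B1 and of the main mitotic entry kinase. They were taken from RefSeq (GRCh38.p14), from 250 bases before to 50 bases after the annotated start, and are written 5′ to 3′ on the strand of the gene. The NCAPG promoter lies at chr4:17810729-17811028, the CCNB1 promoter at chr5:69166900-69167199 and the PLK1 promoter at chr16:23678639-23678938, each on the plus strand. Capitals mark matches to TTTGAA or TTCGAA, the letters searched for a CHR, and to CCAAT. Both strands were searched, and none of these motifs overlaps another in the 3 promoters.
NCAPG: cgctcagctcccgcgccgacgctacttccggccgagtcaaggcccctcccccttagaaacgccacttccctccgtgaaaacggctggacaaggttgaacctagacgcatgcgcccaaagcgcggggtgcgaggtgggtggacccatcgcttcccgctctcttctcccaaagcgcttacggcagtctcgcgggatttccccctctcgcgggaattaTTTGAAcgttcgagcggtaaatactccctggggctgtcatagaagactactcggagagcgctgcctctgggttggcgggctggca
CCNB1: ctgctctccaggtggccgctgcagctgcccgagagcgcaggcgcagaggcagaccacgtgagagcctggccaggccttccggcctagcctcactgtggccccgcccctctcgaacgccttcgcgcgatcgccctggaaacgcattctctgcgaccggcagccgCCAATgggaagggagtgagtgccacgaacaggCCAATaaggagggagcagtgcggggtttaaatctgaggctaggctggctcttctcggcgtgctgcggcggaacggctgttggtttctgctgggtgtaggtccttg
PLK1: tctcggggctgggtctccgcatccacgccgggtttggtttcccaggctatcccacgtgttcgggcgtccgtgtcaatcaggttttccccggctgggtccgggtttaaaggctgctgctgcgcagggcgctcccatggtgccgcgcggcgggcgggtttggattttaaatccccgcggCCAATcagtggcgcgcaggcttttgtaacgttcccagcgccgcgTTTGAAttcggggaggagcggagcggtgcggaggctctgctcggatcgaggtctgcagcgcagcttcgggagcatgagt
The NCAPG promoter held 1 CHR match, 35 bases before the start, and no CCAAT. The CCNB1 promoter held 2 CCAAT matches and no CHR match, and the PLK1 promoter held 1 of each. RefSeq promoters were matched for 37 of the 43 members by symbol. A CHR match was found in 27 of the 37 (73%), against 16.6% of all 27305 promoters of the same length, and a CCAAT match in 29 (78.4%), against 35.7%. Both motifs were found in 22 (59.5%), against 6.58%. CHR without CCAAT was found in BUB1B, NDC80, NUF2, NCAPG and ANLN. These are matches of letters, not mapped binding sites, and no match says only that the letters are not in this window.

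The libraries held about 68712700 to 107953000 counts. SUGP1 itself checked the labels: it was at 7.88, 7.69 and 6.52 CPM in the 3 crSUGP1 libraries, against 31.6, 29.0 and 28.2 CPM in crXCR1 libraries and 30.2, 30.8 and 28.3 CPM in NTC libraries. Of the markers of this mesenchymal bone tumour line, 5 of 6 averaged 1 CPM or more over the libraries, RUNX2 at 16.9 to 27.5 CPM among them, while COL1A2 was at 0.0992 to 0.215 CPM. Of 5 epithelial markers, 4 averaged 1 CPM or more, KRT8 and KRT18 among them. Of 6 leukocyte markers, 0 did, and their summed level was 0.445 to 0.837 CPM. Libraries of the same guide differed beyond sampling noise. Experiment 3 stood apart from the others over all genes, which is taken up with the members' own values at the end.

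In these cells the members spanned a wide range of levels. Per kilobase of exon, the scale on which genes can be compared, CDC20, the activator of the anaphase-promoting complex, was the highest in NTC cells at 192 ± 16.3 CPM per kb (SD, n = 3). CCNB1 followed at 121 ± 7.68, the ubiquitin-conjugating enzyme gene UBE2C at 117 ± 5.80 and the spindle assembly factor gene TPX2 at 110 ± 8.02 CPM per kb, and these neighbours did not differ beyond their spread. The lowest were BORA, the activator of AURKA toward PLK1, at 5.14 ± 0.405 CPM per kb, the kinetochore scaffold gene KNL1 at 5.96 ± 0.380 and ASPM, a spindle pole protein gene, at 6.30 ± 0.431 CPM per kb. Even BORA lay at percentile 62.2 of the genes tested, and CDC20 at percentile 99.3. BORA shares 1180 exon bases with DIS3 on the opposite strand.

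**Figure D1:**
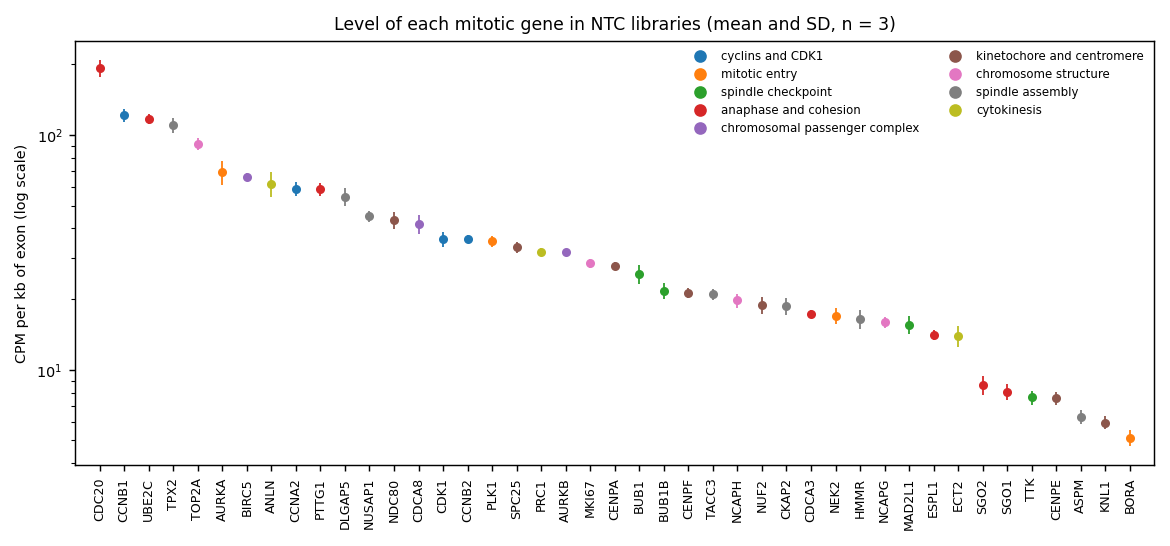
Level of each of the 43 mitotic genes in NTC libraries, in CPM per kb of exon on a log axis. Points are means of 3 libraries and bars are SDs, coloured by role. CDC20 stands at the top at 192 CPM per kb and BORA at the bottom at 5.14 CPM per kb.

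Summed over the 43 genes, the level was 6598, 6670 and 6586 CPM in crSUGP1 libraries, against 6706, 6675 and 6508 CPM in crXCR1 libraries and 6396, 7003 and 6288 CPM in NTC libraries. The sums of the 3 guides overlapped, and the NTC libraries of experiments 2 and 3 were the highest and the lowest of the 9. The genes together took 0.63 to 0.69% of the counts of each library.

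The first question is whether editing of SUGP1 changed the mitotic genes relative to cells with the NTC guide and relative to cells with a cut in XCR1. For 39 of 43 members in each comparison the 95% interval bounded the log2 fold change within ±0.5. The condensin I subunit genes NCAPG and NCAPH and the kinetochore gene SPC25 passed the adjusted p and were lower in crSUGP1 cells, and of these NCAPG alone also passed the fold threshold. No member was higher at the thresholds used. A gene was called where its adjusted p was at most 0.05 (edgeR's quasi-likelihood test with Benjamini-Hochberg adjustment over all 21071 genes) and its absolute log2 fold change at least 0.5.

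Of the 43 members, 1 was called in crSUGP1 against NTC, NCAPG, which fell, against 0.783% of all genes in either direction and 0.456% lower. The same 1 member was called in crSUGP1 against crXCR1, against 0.774% of all genes and 0.584% lower. Both comparisons share the crSUGP1 libraries. With the experiment as a block, 1 member was again called in each, with 2.85% of all genes called against NTC and 3.9% against crXCR1. DESeq2 also called 1 in each, with 1.15% and 1.29% of all genes.

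NCAPG (ENSG00000109805, chr4:17810979-17844865, plus strand, GRCh38) encodes a HEAT-repeat subunit of condensin I, the complex that compacts chromosomes in mitosis. It was at 51.9, 52.3 and 54.0 CPM in the 3 crSUGP1 libraries, against 79.7, 78.5 and 78.3 CPM in crXCR1 libraries and 73.6, 81.3 and 76.6 CPM in NTC libraries. Every crSUGP1 library lay below every control library, by more than the range within any group. The log2 fold change was -0.55 ± 0.05 (SE) against NTC, a fall of 31.7% (edgeR, adjusted p = 0.000941), and -0.58 ± 0.05 against crXCR1, a fall of 33.1% (edgeR, adjusted p = 0.000737). The log2 ratio of crSUGP1 to NTC was -0.51, -0.64 and -0.50 in experiments 1, 2 and 3, and that of crSUGP1 to crXCR1 was -0.62, -0.59 and -0.54. Without the libraries of experiment 1 or of experiment 2 the adjusted p of NCAPG was 0.158 and 0.222 against NTC and 0.185 and 0.153 against crXCR1 (edgeR), with log2 fold changes of -0.57 and -0.50 and of -0.56 and -0.58.

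NCAPG shares 1634 exon bases with LCORL on the opposite strand, and neither the labels nor the methods state whether the counting used strand, so reads of the shared part could belong to either gene. LCORL was at 22.5, 23.5 and 24.1 CPM in crSUGP1 libraries, against 24.5, 25.4 and 23.8 CPM in crXCR1 libraries and 23.3, 26.0 and 23.5 CPM in NTC libraries. The LCORL groups overlapped, and its log2 fold change against NTC was -0.05. The annotation also holds the pseudogenes NCAPGP1 and NCAPGP2.

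NCAPH (ENSG00000121152, chr2:96335766-96377091) encodes the kleisin subunit that closes the condensin I ring. Its levels were 94.1, 94.0 and 91.7 CPM in crSUGP1 libraries, against 133, 130 and 125 CPM in crXCR1 libraries and 128, 138 and 121 CPM in NTC libraries. All 3 crSUGP1 libraries lay below all 6 controls. Against NTC and against crXCR1 alike it changed by -0.47 ± 0.06 on the log2 scale (edgeR, adjusted p = 0.00561 and 0.00601), which passed the adjusted p but stayed short of the fold threshold. Its promoter held a CCAAT match and no CHR match.

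SPC25 (ENSG00000152253, chr2:168834132-168913371) encodes a subunit of the NDC80 complex, which holds spindle microtubules at the kinetochore. It was at 43.5, 43.3 and 43.9 CPM in crSUGP1 libraries, against 59.0, 59.6 and 60.6 CPM in crXCR1 libraries and 57.3, 63.0 and 61.8 CPM in NTC libraries. The 3 crSUGP1 libraries differed from each other by less than 1 CPM and lay below all controls. On the log2 scale the change was -0.48 ± 0.05 relative to NTC and -0.46 ± 0.05 relative to crXCR1 (edgeR, adjusted p = 0.00223 and 0.00309), again short of the fold threshold. The SPC25 promoter held both CHR and CCAAT matches. The 2 other NDC80 complex subunits among the members, NDC80 and NUF2, were at -0.07 and -0.01 on the log2 scale against NTC, and neither passed. The remaining subunit gene of the complex, SPC24, is no member and was added after its values were seen. It was at 33.1, 31.3 and 29.8 CPM in crSUGP1 libraries, against 34.6, 36.5 and 37.2 CPM in crXCR1 libraries and 37.8, 33.0 and 35.7 CPM in NTC libraries, which overlapped. Its log2 fold changes were -0.18 ± 0.07 relative to NTC and -0.20 ± 0.07 relative to crXCR1, with adjusted p-values of 0.304 and 0.205 without the block and of 0.0525 and 0.0227 with it (edgeR).

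**Figure D2:**
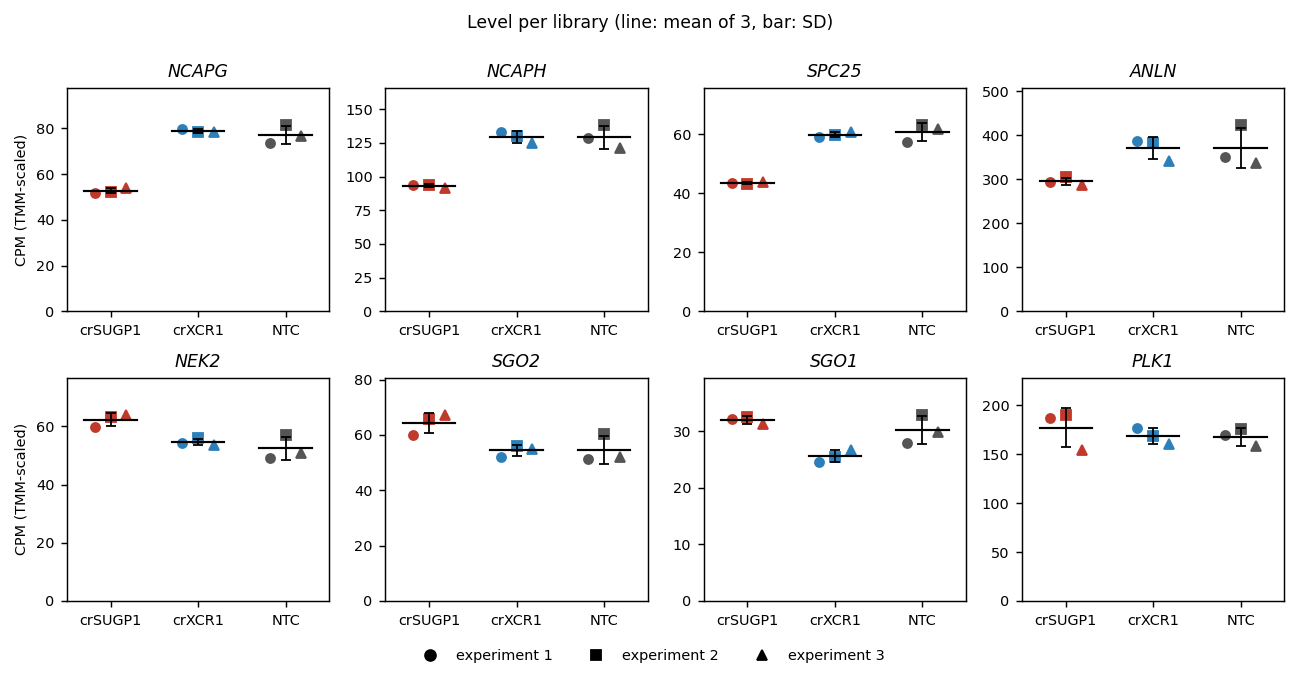
Level of 8 mitotic genes in each library, in CPM from 0. Points are libraries, shaped by experiment, lines are means of 3 and bars are SDs, with crSUGP1 in red, crXCR1 in blue and NTC in grey. The crSUGP1 points of NCAPG, NCAPH, SPC25 and ANLN lie below all 6 controls, those of NEK2 above them, and the crXCR1 points of SGO1 below all others.

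By adjusted p alone, 3 members were lower against NTC (NCAPG, NCAPH and SPC25), with 0.755% of all genes lower by this rule, and 0 were higher, with 0.503% of all genes higher (edgeR). The same 3 members were lower against crXCR1, with 0.968% of all genes, and 0 were higher, with 0.46%. DESeq2 gave 5 members by adjusted p alone in each comparison, beside 3.93% of all genes against NTC and 4.94% against crXCR1. Besides these 3 they were ANLN, which was lower (DESeq2, adjusted p = 0.0256 against NTC and 0.0246 against crXCR1), and 1 higher gene, NEK2 against NTC (DESeq2, adjusted p = 0.0208) and SGO1 against crXCR1 (DESeq2, adjusted p = 0.00234). At an unadjusted p under 0.05, 9 of 43 members passed against NTC and 9 against crXCR1, beside 13.2% and 16.1% of all genes. Those higher were CDK1, NEK2, SGO2 and KNL1 against NTC and NEK2, SGO1 and SGO2 against crXCR1. The 39 members with an interval within ±0.5 stood beside 63.4% of all genes against NTC and 62% against crXCR1, many of them at lower levels than the members. The exceptions in both were NCAPG, NCAPH, SPC25 and ANLN.

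Same-numbered libraries share an experiment, and fitting the experiment as a blocking term moved the count by adjusted p alone. With the block, 10 members passed against NTC, 6 higher and 4 lower (edgeR), beside 15.7% of all genes, 6.72% higher and 8.96% lower. Against crXCR1, 10 members passed, 4 higher and 6 lower, beside 21.7% of all genes, 9.99% higher and 11.7% lower. The members lower in both were NCAPG, NCAPH, SPC25 and ANLN, joined against crXCR1 by CENPA and ASPM. Those higher in both were CDK1, NEK2 and SGO2, joined against NTC by KNL1, CDCA8 and CKAP2 and against crXCR1 by SGO1. Apart from NCAPG, the folds of all of these stayed under the threshold.

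ANLN, the gene of anillin, the scaffold of the contractile ring in cytokinesis, was picked for its per-library values after they were seen, as was CENPA below. It was at 294, 304 and 287 CPM in crSUGP1 libraries, against 387, 382 and 342 CPM in crXCR1 libraries and 350, 423 and 338 CPM in NTC libraries. All crSUGP1 libraries lay below all controls, and both control groups were lowest in experiment 3. The log2 fold change was -0.33 ± 0.09 against each control, with adjusted p-values of 0.141 and 0.12 without the block and of 0.00132 and 9.11e-04 with it, for NTC and crXCR1 in turn (edgeR).

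NEK2, a centrosome kinase gene, had the highest log2 fold change against NTC. It was at 59.6, 63.3 and 63.9 CPM in crSUGP1 libraries, against 54.2, 55.8 and 53.7 CPM in crXCR1 libraries and 49.3, 57.0 and 51.0 CPM in NTC libraries. The crSUGP1 libraries lay above all 6 controls, the nearest being the NTC library of experiment 2. It differed by 0.25 ± 0.07 on the log2 scale against NTC, with an adjusted p of 0.124 and with the block of 0.00329 (edgeR), and 0.19 ± 0.06 against crXCR1, with 0.201 and 0.0136.

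SGO2, a protector of centromeric cohesion, was at 60.1, 65.7 and 67.3 CPM in crSUGP1 libraries, against 52.2, 56.1 and 55.0 CPM in crXCR1 libraries and 51.4, 60.3 and 52.1 CPM in NTC libraries. The groups overlapped by a single NTC library, that of experiment 2, and within each experiment crSUGP1 was above both controls. Its log2 fold change was 0.24 ± 0.08 against each control, with adjusted p-values of 0.201 for NTC and 0.167 for crXCR1 without the block and of 0.00578 and 0.00422 with it (edgeR). CKAP2, a microtubule-stabilising spindle protein gene, was at 88.8, 93.1 and 109 CPM in crSUGP1 libraries, against 82.4, 87.9 and 90.7 CPM in crXCR1 libraries and 77.4, 91.1 and 86.0 CPM in NTC libraries, which overlapped, with a log2 fold change of 0.19 ± 0.09 against NTC.

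Over all members, the crSUGP1 libraries lay below all 6 controls for 5 genes (NCAPG, NCAPH, SPC25, ANLN and CENPA), beside 6.69% of all genes, and above them for 3 (NEK2, KNL1 and TPX2), beside 6.36%. CENPA, the centromeric histone H3 variant, was at 48.6, 49.4 and 48.9 CPM in crSUGP1 libraries, against 52.7, 56.1 and 57.8 CPM in crXCR1 libraries and 51.9, 55.4 and 54.8 CPM in NTC libraries, a log2 fold change of -0.14 ± 0.06 against NTC that did not pass. Within the experiments, 10 members were lower and 16 higher in crSUGP1 than in NTC in each of the 3, beside 24% and 22.9% of all genes. Against crXCR1, 10 were lower and 19 higher in each of the 3, beside 27.1% and 26.5%.

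The members are given next by role as log2 fold changes against NTC, and no difference between roles was tested. In edgeR without the block none of them passed apart from NCAPG, NCAPH and SPC25. The 4 cyclin and CDK1 genes lay on both sides of 0, at -0.10 for CCNA2, -0.04 for CCNB2, 0.02 for CCNB1 and 0.16 for CDK1 on the log2 scale against NTC. The 4 mitotic entry genes, of the kinases PLK1, AURKA and NEK2 and of BORA, were all above 0 against both controls, from 0.08 for PLK1 to 0.25 for NEK2 against NTC, with AURKA at 0.12 and BORA at 0.15. All 4 spindle checkpoint genes were also above 0 against both, with BUB1B at 0.04, TTK at 0.06, BUB1 at 0.11 and MAD2L1 at 0.13 against NTC. In the fit without the block, the interval of these 8 genes against NTC included 0 in every case but NEK2. Within the experiments, AURKA, BORA, NEK2, BUB1 and MAD2L1 were higher than in NTC in each of the 3, beside 22.9% of all genes. PLK1, BUB1B and TTK were higher in 2 of the 3.

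PLK1, which served as the editing control in the screen of the study, was at 187, 190 and 154 CPM in crSUGP1 libraries, against 177, 168 and 160 CPM in crXCR1 libraries and 169, 176 and 158 CPM in NTC libraries. The lowest library of each guide was that of experiment 3, and the groups overlapped, with a log2 fold change of 0.08 (95% interval -0.12 to 0.27) against NTC.

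Among the anaphase and cohesion genes, 6 of 7 were above 0 against NTC, from PTTG1, the gene of securin, at 0.01 to SGO2 at 0.24, with CDCA3 at 0.07, SGO1 at 0.08, CDC20 at 0.09 and UBE2C at 0.11, while ESPL1, the gene of separase, was at -0.06. The passenger complex genes AURKB, BIRC5 and CDCA8, which encode the kinase and its partners survivin and borealin, were at 0.02, 0.06 and 0.15. Of the 7 kinetochore and centromere genes, CENPE, the kinetochore motor, was at 0.02, CENPF at -0.02 and KNL1 at 0.19, beside the lower SPC25 and CENPA. In the chromosome structure group, TOP2A, the topoisomerase that untangles sister DNA, was at 0.07 and MKI67, the Ki-67 proliferation marker, at -0.05, beside NCAPG and NCAPH.

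The 7 spindle assembly genes ran from -0.13 for ASPM to 0.19 for CKAP2 against NTC, with TACC3 at -0.06, DLGAP5 at -0.05, HMMR at 0.05, NUSAP1 at 0.11 and TPX2 at 0.13. TPX2, the activator of AURKA on the spindle, was at 430, 441 and 428 CPM in crSUGP1 libraries, against 410, 401 and 385 CPM in crXCR1 libraries and 386, 428 and 372 CPM in NTC libraries, so that its groups were separate by less than 1 CPM. In cytokinesis, PRC1, the midzone bundling protein gene, was at 0.09 and ECT2, the activator of RhoA at the cleavage furrow, at 0.0042, beside ANLN. Over the 43 members the median log2 fold change was 0.05 against NTC, with 28 above 0, and 0.06 against crXCR1, with 27 above 0, where the medians of all genes tested were -0.0039 and -0.0030. With libraries scaled by their totals alone, the numbers above 0 were 28 and 23.

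**Figure D3:**
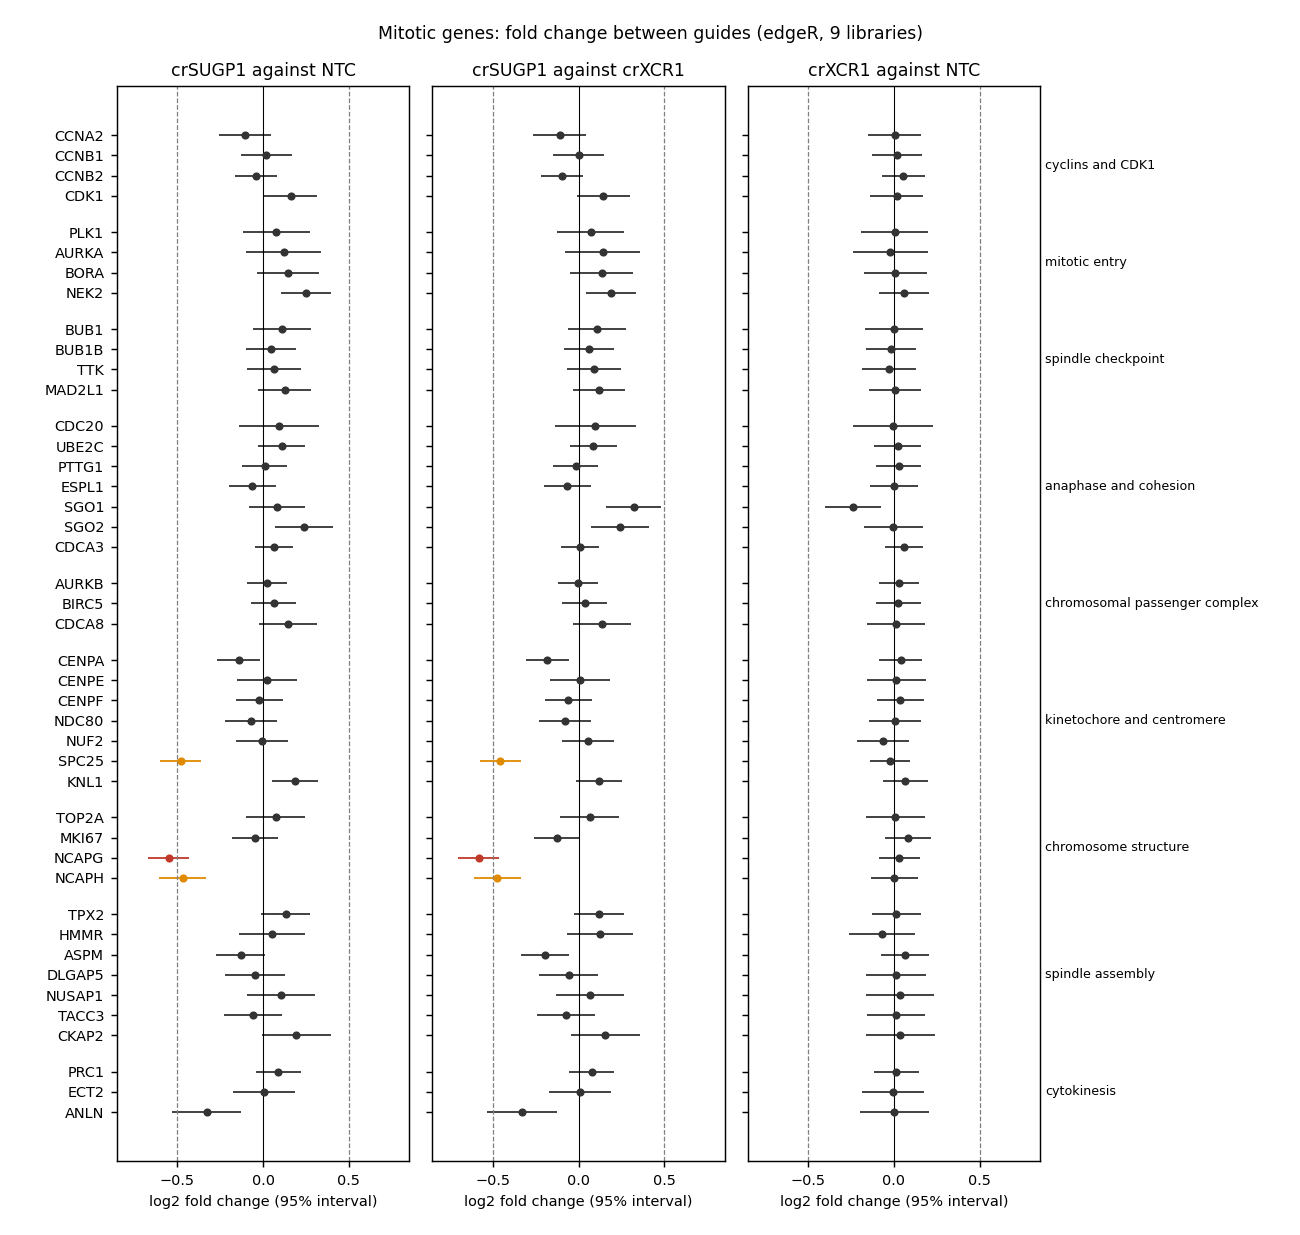
Log2 fold change of each mitotic gene for crSUGP1 against NTC, crSUGP1 against crXCR1 and crXCR1 against NTC, by role, from 1 fit to 9 libraries. Points are estimates, bars are 95% intervals and dashed lines mark ±0.5. Red marks the called gene, NCAPG, orange the genes that passed the adjusted p alone, NCAPH and SPC25, and the remaining genes are black.

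The third comparison asks what a cut in XCR1, which was at 0 to 0.181 CPM in these libraries, did to the mitotic genes. In crXCR1 against NTC, 0 of 43 members and 0% of all genes were called by edgeR. By unadjusted p under 0.05, 1 member passed, SGO1, beside 1.34% of all genes. DESeq2 also called 0 members and 0% of all genes, and 1 member and 1.06% of all genes had an unadjusted p under 0.05 in it. With the experiment as a block 0 members were called, beside 0.00475% of all genes. The 95% interval lay within ±0.5 for 43 of 43 members, beside 71.5% of all genes, many of them at lower levels than the members. Within the experiments, 1 member was lower and 4 were higher in crXCR1 in each of the 3, beside 14.2% and 15.4% of all genes.

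SGO1 (ENSG00000129810, chr3:20160593-20186206, minus strand), the shugoshin that protects cohesin at centromeres, lies on 3p between the XCR1 site and the end of the arm. It was at 24.6, 25.4 and 26.7 CPM in crXCR1 libraries, against 27.9, 32.9 and 29.8 CPM in NTC libraries, and at 32.1, 32.6 and 31.2 CPM in crSUGP1 libraries. The 3 crXCR1 libraries lay below the other 6, which held for 1 member and for 0.944% of all genes, while 0 members and 0.788% of all genes had crXCR1 above the other 6. The log2 fold change was -0.24 ± 0.07 against NTC, a difference of -15.3% with an adjusted p of 1 and, with the block, of 0.139 (edgeR). In crSUGP1 against crXCR1 it was 0.32 ± 0.07, the highest of the members, with an adjusted p of 0.0667 and, with the block, of 0.00119 (edgeR). SGO1 was the only member among the 225 genes with a mean of at least 1 CPM that lie from the XCR1 site outward on 3p. Over these genes the median log2 fold change of crXCR1 against NTC was -0.19 and 94.2% were lower in crXCR1, with SGO1 at rank 50 from the lowest. The part of the other genes of the arm in the SGO1 difference was not tested. SGO1 also shares 593 exon bases with SGO1-AS1 on the opposite strand.

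The next lowest members in crXCR1 against NTC were HMMR, the gene of a hyaluronan-binding spindle protein, and NUF2. HMMR was at 65.2, 64.1 and 55.0 CPM in crXCR1 libraries, against 64.6, 70.5 and 58.6 CPM in NTC libraries. NUF2 was at 59.1, 61.1 and 61.7 CPM in crXCR1 libraries, against 60.4, 69.4 and 60.1 CPM in NTC libraries. Both overlapped, at log2 fold changes of -0.07 and -0.06.

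The highest were MKI67, KNL1 and ASPM, at 0.08, 0.07 and 0.06. MKI67 was at 393, 372 and 395 CPM in crXCR1 libraries, against 371, 378 and 348 CPM in NTC libraries. KNL1 was at 64.7, 63.3 and 63.9 CPM in crXCR1 libraries, against 58.6, 65.6 and 59.1 CPM in NTC libraries. ASPM was at 78.6, 78.3 and 80.1 CPM in crXCR1 libraries, against 71.7, 81.4 and 73.5 CPM in NTC libraries. The levels of all 3 genes overlapped between the guides. The median over the 43 members was 0.01, with 33 above 0, and that of all genes was -0.00050.

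The regulators of these promoters were measured in the same libraries. MYBL2, the gene of B-MYB, was at 385, 369 and 350 CPM in crSUGP1 libraries, against 488, 473 and 486 CPM in crXCR1 libraries and 490, 511 and 479 CPM in NTC libraries. The crSUGP1 libraries lay below all 6 controls, with log2 changes of -0.42 ± 0.06 relative to NTC and -0.39 ± 0.06 relative to crXCR1 (edgeR, adjusted p = 0.00681 and 0.0122), short of the fold threshold. FOXM1 was at 416, 412 and 416 CPM in crSUGP1 libraries, against 418, 422 and 418 CPM in crXCR1 libraries and 412, 430 and 412 CPM in NTC libraries, with a log2 fold change of -0.01 (95% interval -0.12 to 0.10) against NTC.

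CDKN1A, the gene of p21, the CDK inhibitor upstream of DREAM, was at 260, 269 and 230 CPM in crSUGP1 libraries, against 228, 208 and 207 CPM in crXCR1 libraries and 185, 173 and 167 CPM in NTC libraries. All 3 guides were separate from each other, with crSUGP1 highest and NTC lowest. It rose against NTC, by 0.53 ± 0.08 on the log2 scale (edgeR, adjusted p = 0.00954). Against crXCR1 the log2 fold change was 0.24 ± 0.08, with an adjusted p of 0.171 and, with the block, of 0.00377 (edgeR). In crXCR1 against NTC it was 0.29 ± 0.08, with an adjusted p of 1 and, with the block, of 0.0834 (edgeR). The log2 ratio of crXCR1 to NTC was 0.30, 0.27 and 0.31 in experiments 1, 2 and 3. Of the 16 regulator genes listed, CDKN1A alone was called against NTC, beside 0.783% of all genes, and 0 were called against crXCR1, beside 0.774%. By adjusted p alone with the block, MYBL2 and E2F4 were lower in both comparisons (edgeR), beside 8.96% and 11.7% of all genes. CDKN1A was higher in both and LIN54 against crXCR1, beside 6.72% and 9.99%. E2F4 was at -0.29 ± 0.09 against NTC and -0.23 ± 0.09 against crXCR1 on the log2 scale. Neither E2F4 nor LIN54 passed without the block.

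The other gene groups of mitosis, from lists kept beside the members, held few called genes. Of 12 mitotic kinesin genes, 1 was called in both crSUGP1 comparisons, beside 0.783% and 0.774% of all genes. KIF20A, the kinesin of the central spindle, was at 52.7, 55.9 and 59.4 CPM in crSUGP1 libraries, against 90.3, 94.2 and 97.8 CPM in crXCR1 libraries and 82.0, 93.3 and 89.0 CPM in NTC libraries. It fell by 0.65 ± 0.07 on the log2 scale against NTC and by 0.75 ± 0.07 against crXCR1 (edgeR, adjusted p = 0.00169 and 0.000737). Of 16 genes of the anaphase-promoting complex, 32 other kinetochore and passenger genes, 6 other condensin genes, 32 other G2/M genes and 30 S phase genes, 0 were called against either control by edgeR or DESeq2. At an unadjusted p under 0.05 in edgeR, 4, 4, 0, 1 and 6 genes of these lists passed against NTC, beside 13.2% of all genes, and 4, 4, 0, 2 and 5 against crXCR1, beside 16.1%. Against NTC 4, 3, 0, 0 and 5 of them were lower and 0, 1, 0, 1 and 1 higher. Against crXCR1 4, 3, 0, 0 and 4 were lower and 0, 1, 0, 2 and 1 higher. Genes of these lists with an adjusted p of at most 0.05 in edgeR without the block are given with the other observations. With the block, 4, 2, 0, 0 and 5 passed the adjusted p and were lower against NTC, beside 8.96% of all genes (edgeR). Higher were 0, 1, 0, 2 and 1, beside 6.72%. For crXCR1 the lower were 6, 3, 0, 0 and 5, beside 11.7%, and the higher 1, 3, 0, 3 and 1, beside 9.99%. The other condensin genes, in contrast to NCAPG and NCAPH, had a median log2 fold change of 0.01 against NTC and 0.05 against crXCR1. The difference between the condensin genes was not tested.

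The last comparison sets the 3 experiments against each other with the guide in the fit, and shows how far these genes differed between cultures of the same kind. Over all genes, experiment 3 differed most: 11.2% of all genes were called against experiment 1 and 9.5% against experiment 2, and 0.0332% between experiments 2 and 1. Of the members, 0 were called in each of the 3 comparisons by edgeR and by DESeq2. At an unadjusted p under 0.05, 11 members passed in experiment 3 against 1, 14 in 3 against 2 and 5 in 2 against 1, beside 49.7%, 46.3% and 8.57% of all genes.

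By adjusted p alone, 8 members passed in experiment 3 against 1, beside 42.1% of all genes. The 3 higher ones were NUSAP1, CKAP2 and TOP2A, beside 20.7% of all genes, and the 5 lower ones were CDC20, PLK1, TACC3, AURKA and HMMR, beside 21.4%. In experiment 3 against 2, 11 passed, beside 37.7% of all genes, with 1 higher (NUSAP1) and 10 lower, beside 18.5% and 19.3%. In experiment 2 against 1, 0 passed, beside 0.0664%. A test of the whole experiment term passed for 9 members, beside 40.8% of all genes.

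CDC20 differed most. It was at 356, 351 and 348 CPM in the crSUGP1, crXCR1 and NTC libraries of experiment 3, against 440, 421 and 407 CPM in those of experiment 1. All 3 libraries of experiment 3 lay below those of experiment 1, and the log2 fold change was -0.26 ± 0.05 (edgeR, adjusted p = 0.000418). PLK1 was at 154, 160 and 158 CPM in experiment 3, against 187, 177 and 169 CPM in experiment 1, with the guides in the same order, a log2 fold change of -0.17 ± 0.05 (edgeR, adjusted p = 0.0130). TACC3, the gene of a spindle protein that binds chTOG, was at 160, 179 and 174 CPM in experiment 3, against 188, 196 and 192 CPM in experiment 1, also at -0.17 ± 0.05 (edgeR, adjusted p = 0.00936). For both, all 3 libraries of experiment 3 were the lower ones.

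NUSAP1, a spindle microtubule-bundling gene, went the other way, at 194, 182 and 171 CPM in the crSUGP1, crXCR1 and NTC libraries of experiment 3, against 162, 154 and 152 CPM in those of experiment 1, a log2 fold change of 0.22 ± 0.05 (edgeR, adjusted p = 0.00115). It shares 2938 exon bases with ENSG00000285920, a protein-coding gene on the same strand, and reads of the shared part could have been split between them. CKAP2 was at 109, 90.7 and 86.0 CPM in experiment 3, against 88.8, 82.4 and 77.4 CPM in experiment 1, with a log2 fold change of 0.20 ± 0.05. The smallest differences were those of PTTG1, at 116, 116 and 112 CPM in experiment 3, against 115, 118 and 112 CPM in experiment 1, and of BUB1, at 173, 154 and 153 CPM in experiment 3, against 168, 163 and 151 CPM in experiment 1.

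Among the members, the spread between experiments was of a size with the spread between guides. The median SD of the log2 level was 0.0572 between guides and 0.0565 between experiments, and the spread between experiments was the larger one for 20 of 43 members. Over all genes tested these medians were 0.0829 and 0.111, and the spread between experiments was the larger for 13103 of 21071. Many of these genes are at lower levels than the members, the lowest of which, BORA, lay at percentile 62.2 per kb. Genes of like level were not compared.

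**Figure D4:**
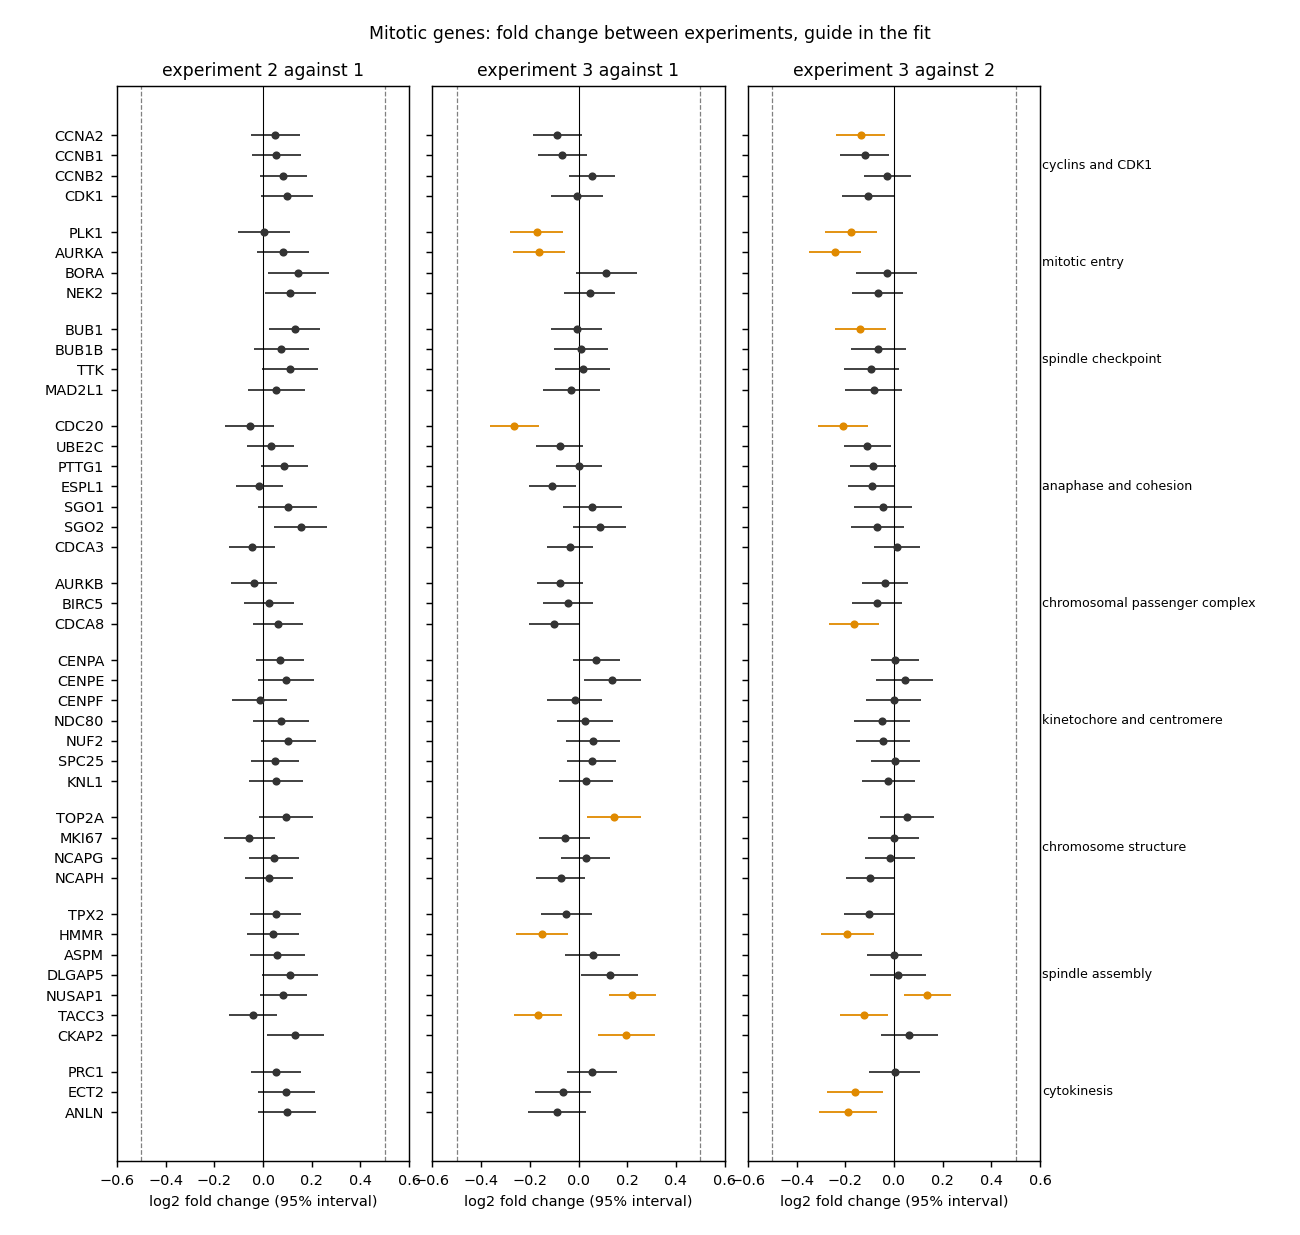
Log2 fold change of each mitotic gene between experiments, with the guide in the fit, for experiment 2 against 1, 3 against 1 and 3 against 2. Points are estimates, bars are 95% intervals, dashed lines mark ±0.5 and orange marks genes that passed the adjusted p alone. Every point lies within ±0.5, with CDC20 at -0.26 and NUSAP1 at 0.22 as the extremes of experiment 3 against 1.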

How the data were processed

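PolyA RNA of 9 U-2 OS cultures, 3 guides in each of 3 experiments, was sequenced. According to the submitters' notes, reads were checked with FastQC 0.11.5, trimmed with Trim Galore 0.6.7 (cutadapt 2.4) and aligned to GRCh38 with STAR 2.7.9a. The deposited values are raw counts, which the authors made by counting the read pairs that fell on a gene's exons in SeqMonk. Whether strand was used in counting is not given in the sources used here, so overlapping genes on opposite strands may share reads.

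Of 38179 entries, 51 names were repeated. Under repeated names, 30 entries at 0 and 2 identical entries were dropped. The filter kept 21071 genes whose log2 CPM exceeded -2 in 1 library or more. Groups were taken from the labels. Libraries held about 68712700 to 107953000 counts, and their number, more than counting error, limits the precision. Replicates differed by more than sampling noise (chi-square per degree of freedom 5.58 to 53.6). They come from separate experiments.

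Counts were tested with edgeR 4.0.16 (TMM, glmQLFit, glmQLFTest, R 4.3.3) in 1 fit of all 9 libraries on guide, with 6 residual degrees of freedom, and p-values were adjusted by the Benjamini-Hochberg method over all genes. The thresholds of the study were used for a call, an adjusted p up to 0.05 with a log2 fold change of 0.5 or more in size. Experiments were compared in a fit with guide and experiment. Same-numbered libraries belong to 1 experiment: over 16793 genes their deviations from the group means correlated at 0.498 to 0.902 in all 9 pairs, and those of different numbers at -0.854 to 0.660. The fit with the experiment as a block had 4 residual degrees of freedom. Alternatives were DESeq2 1.42.0, other scalings and filters, the block, 6 libraries only, and leaving out each library and each experiment. The procedure was tested on simulated data that held no differences between experiments, unlike the libraries here.

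All 43 members are described by role. Values of each library were given for called members, the 3 highest and 3 lowest of each guide comparison, the 5 members with the largest and the 2 with the smallest difference between experiments 3 and 1, PLK1 and SGO1. The members and lists were chosen with earlier results of these data known. Promoters came from RefSeq (GRCh38.p14), with 1 entry per symbol.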

Additional observations from a re-analysis of the deposited data

How the results depend on the processing

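The count of called members in crSUGP1 against NTC was 1. It was 0 without experiment 1 and 0 without experiment 2, 2 without experiment 3 (NCAPH joined NCAPG, at -0.51), 3 by adjusted p alone, and 1 to 2 when 1 library was left out. It was 2 without NTC replicate 1, where SPC25 joined at -0.52, and 2 without NTC replicate 3, where NCAPH joined at -0.51. Against crXCR1 the count was 1, with 0 without experiment 1, 0 without experiment 2, 3 by adjusted p alone, and 1 to 1 with 1 library left out. With the replicate block it was 1 against NTC, 1 against crXCR1 and 0 for crXCR1 against NTC, whose count was 0 in every alternative run. Between experiments, 0 members were called, and 8 in experiment 3 against 1 and 11 in 3 against 2 passed by adjusted p alone. NCAPG was called in 17 of 19 settings in each crSUGP1 comparison. NCAPH and SPC25 passed the adjusted p in 17 of 19, ANLN in 3. Over all genes, the calls were 165 and 163 against NTC and crXCR1, with the block 601 and 821, by DESeq2 243 and 271, without experiment 1 only 2 and 1, without experiment 2 only 2 and 2, and without experiment 3 a total of 413 and 484. Without experiment 1 or 2 NCAPG lost its call with a log2 fold change of -0.57 and -0.50 against NTC, while without experiment 3, which leaves the same number of libraries, it was called, and the cause was not tested. The direction of change was followed over the settings for NCAPG, NCAPH, SPC25, ANLN, NEK2, SGO2, SGO1 and MYBL2 only. None of these changed sign in a comparison where it was followed.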

Other observations

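Among the lists of other mitotic and cell cycle genes, 4 passed the adjusted p in both crSUGP1 comparisons but not the fold threshold (edgeR without the block). All 4 were lower in crSUGP1 cells. They were MYBL2, described above, and KIF14, CDC27 and MCM2. Their lists hold 16 regulators, 12 mitotic kinesins, 16 genes of the anaphase-promoting complex and 30 S phase genes. By adjusted p alone, called genes included, 0.755% of all genes were lower against NTC and 0.968% against crXCR1. KIF14, CDC27 and MCM2 were chosen after their values were seen. KIF14, a kinesin of cytokinesis, was at 50.1, 52.1 and 51.8 CPM in crSUGP1 libraries, against 67.0, 68.1 and 68.4 CPM in crXCR1 libraries and 62.8, 70.6 and 66.0 CPM in NTC libraries, a log2 fold change of -0.37 against NTC and -0.40 against crXCR1 (edgeR, adjusted p = 0.0123 and 0.00944).

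CDC27, a subunit of the anaphase-promoting complex, was at 72.0, 71.0 and 73.0 CPM in crSUGP1 libraries, against 95.6, 99.9 and 93.6 CPM in crXCR1 libraries and 92.7, 105 and 92.1 CPM in NTC libraries, at -0.42 against both (edgeR, adjusted p = 0.0120 and 0.0142). MCM2, a subunit of the replicative helicase, was at 189, 185 and 186 CPM in crSUGP1 libraries, against 232, 224 and 224 CPM in crXCR1 libraries and 229, 233 and 228 CPM in NTC libraries, at -0.30 against NTC and -0.28 against crXCR1 (edgeR, adjusted p = 0.0175 and 0.0266). For KIF14, CDC27 and MCM2 the crSUGP1 libraries lay below the 6 controls, which held for 6.69% of all genes.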
